A study of Mus musculus with 24 samples.

Results

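iPS-MG and nMG, the microglia-like cells grown from induced pluripotent stem cells and the microglia of newborn mice, were set beside the other 4 myeloid cell types of the study to find the genes that mark both of them off from every one of the others. The comparison used 18 of the 24 mouse arrays, which fall into 8 groups of 3. On one side stood 6 arrays, 3 of iPS-MG and 3 of nMG, and on the other 12 arrays, 3 each of aMG, BMM, PM and DC. The members were chosen by their array titles, and every cell type had the same weight.

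Microglia are the resident macrophages of the brain. They descend from progenitors of the embryonic yolk sac and divide in the brain after birth, whereas many macrophages and dendritic cells of other tissues are renewed from the bone marrow. All of them share a core of myeloid genes, such as the M-CSF receptor and the transcription factor PU.1, and differ in genes that depend on the tissue and on age. Early postnatal microglia are known to proliferate and to handle lipid from developing myelin, and class II antigen presentation is a function best known from dendritic cells and activated macrophages.

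Per the labels, iPS-MG were GFP-positive cells derived from iPS cells and listed as adult, nMG came from mice at postnatal day 5, and aMG from adult mice. These 3 groups carried gfp in 1 copy of Cx3cr1, the fractalkine receptor gene, on C57BL/6NCr. BMM (bone marrow macrophages), PM (peritoneal macrophages) and DC (dendritic cells) came from adult C57BL/6NCr mice without that allele. The culture notes list GM-CSF, M-CSF and IL-3 for cells named gMG, a name the labels do not define, and serum medium for all other cells. The background strain is thus the same in every group compared. The Cx3cr1 allele, age, culture, sex and cell type vary together in part, and their shares in a difference cannot be told apart. In bulk RNA a smaller share of cells with a transcript and less RNA per cell cannot be told apart either. Nothing in the labels tells if different mice or cultures lie behind the 3 arrays in each group, and p-values here speak of the variation among these arrays alone, part or all of which could be technical.

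The deposited values are log2 signals from Affymetrix Gene 1.0 ST arrays, and differences below are in log2 units, where 1 is 2-fold. Medians of the 18 arrays ran from 7.96 to 8.21, highest in PM, and Pearson's r across the 18820 genes was at least 0.9952 within every group. Between iPS-MG and nMG arrays r was 0.9969 to 0.9981, and between either of them and the other types 0.9383 to 0.9678. Genes are not independent replicates, so these values are descriptive. The root mean square difference between group means was 0.0962 from iPS-MG to nMG, against 0.543 from the mean of that pair to aMG, 0.528 to BMM, 0.673 to PM and 0.678 to DC.

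The cells behind the labels were checked against marker lists. The mean level of 26 pan-myeloid genes lay between 11.96 and 12.46 in all 18 arrays, so that every group carried the myeloid core. Other cell types' markers stood out in some comparison groups: 18 fibroblast genes averaged 10.51 to 10.63 in the aMG arrays against 7.53 to 8.17 in the other 15, and 14 granulocyte genes averaged 10.53 to 10.58 in BMM against 7.24 to 8.13 in the others. Sex-linked genes also differed. Eif2s3y, carried on the Y chromosome, averaged 10.08 ± 0.06 in iPS-MG, 10.13 ± 0.08 in nMG and 10.80 ± 0.03 in DC (SD, n = 3), against 5.01 in aMG, 5.20 in BMM and 5.11 in PM. Xist, the transcript of the inactive X, was 12.15 and 12.12 in iPS-MG and nMG, 6.94 in DC and 13.03 to 13.22 in the other types. The iPSC arrays stood at 6.90 for Eif2s3y and 9.18 for Xist, apart from the iPS-MG arrays on both. The part of these markers in the differences described here was not tested.

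A gene was called at a Benjamini-Hochberg adjusted p under 0.05 (limma) and a difference of at least 1, and it was described as set apart when all 8 contrasts of iPS-MG or nMG with aMG, BMM, PM or DC were called in the same direction. Under this rule 25 genes were higher in both neonatal-type groups, 0.133% of the genes tested, and 44 were lower, 0.234%. The pooled contrast, the mean of iPS-MG and nMG minus the mean of the other 4 types, called 378 genes higher (2.01%) and 393 lower (2.09%), so that 6.61% of the higher and 11.2% of the lower pooled calls were set apart from each of the 4 types. In all 25 and all 44 genes the arrays of the 2 sides did not overlap. The rule makes this nearly certain, so here and in the single genes below it is no separate result. The same held for 203 of the 378 pooled higher calls and 184 of the 393 lower. The share over all genes was not counted. With every array centred on its median, which moves the median difference over all genes from -0.05 to 0.04, the split was 36 higher and 33 lower. Higher genes then made up 52.2% of the set-apart genes in place of 36.2%, and 60.4% of the pooled calls in place of 49.0%.

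The size of the separation is given below as the gap, which is the distance between the nearest neonatal-type mean and the nearest other mean. It had a median of 1.38 (2.6-fold) in the higher genes and 1.32 (2.5-fold) in the lower ones. Galnt12, a glycosyltransferase that starts O-linked sugar chains, was the last gene inside the higher set with a gap of 1.00. Just outside it were Cadm1 (0.999), Ncan (0.967) and Spdl1 (0.965). In the lower set Tifab (1.01) was the last inside, and Gypc (1.00 after rounding, just under the minimum), Gstp1 (0.985) and Marveld1 (0.982) were outside.

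**Figure D1:**
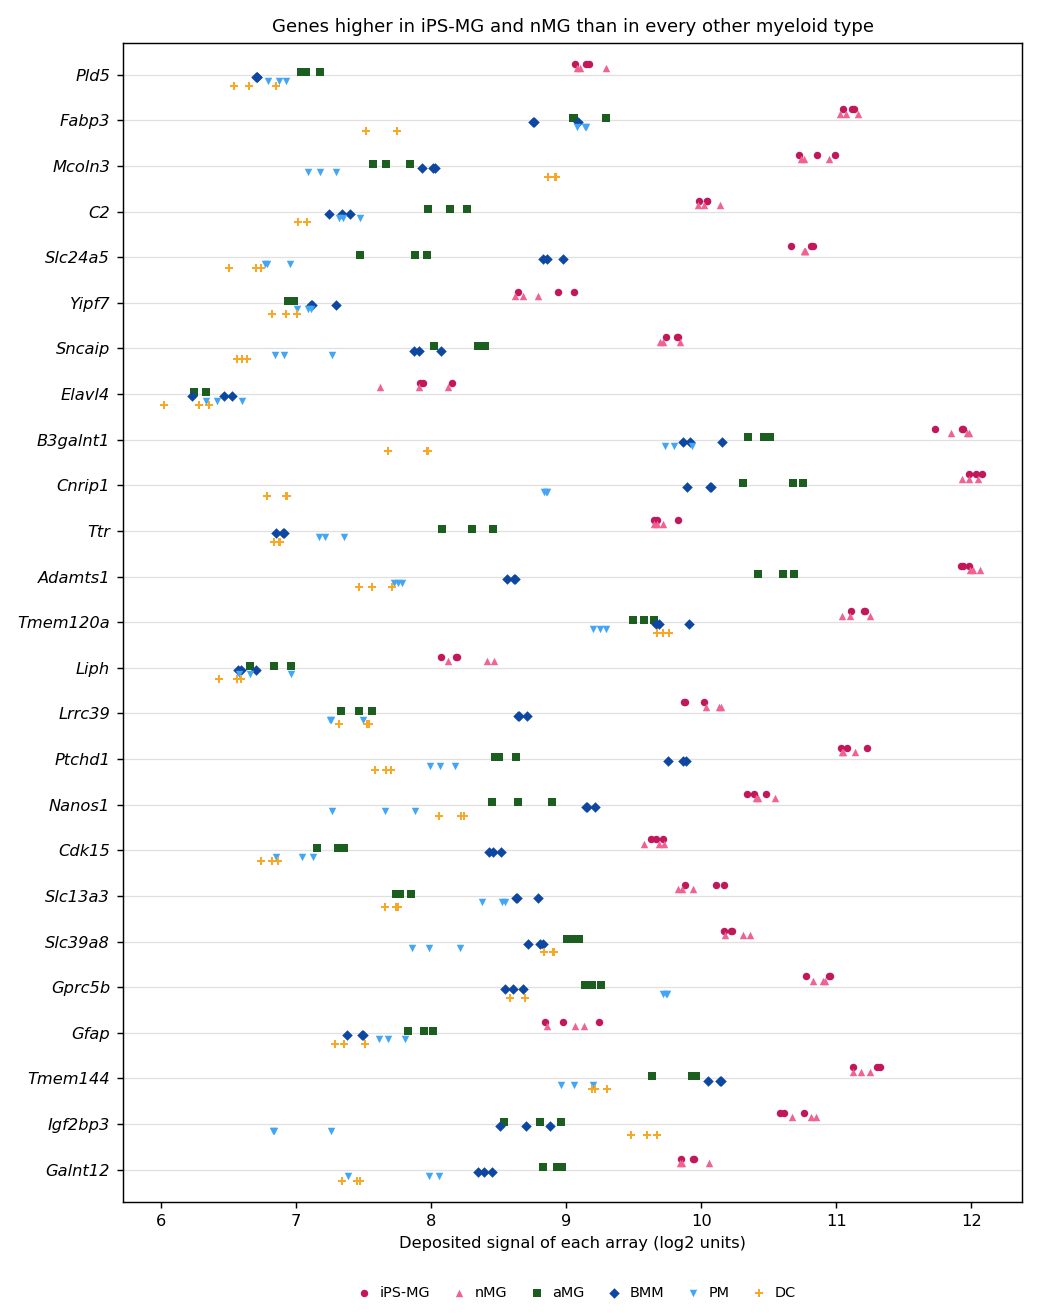
Deposited log2 signal (x axis) of each of the 18 arrays for the 25 genes set apart higher, ordered from the largest gap at the top; each point is 1 array and symbols give the cell type. The 6 iPS-MG and nMG points lie to the right of all other points in every row, and the nearest other type is aMG in 12 genes, BMM in 9, PM in 2 and DC in 2.

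The higher genes were led by a mixed group of membrane, lipid and secreted proteins, with transcripts best known from neurons or muscle among them. Pld5, a member of the phospholipase D family, had the widest gap. Its signal was 9.17, 9.14 and 9.06 in iPS-MG and 9.08, 9.10 and 9.29 in nMG, against 7.04, 7.08 and 7.18 in aMG, 6.71 in each BMM array, 6.79 to 6.93 in PM and 6.54 to 6.85 in DC. No array of another type came near the pair, and the gap of 2.03 ± 0.07 (SE) to aMG was 4.08-fold (limma with Benjamini-Hochberg adjusted p = 2.94e-15).

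Fabp3 and C2 had gaps of 1.95 and 1.90. Fabp3, which encodes the heart-type fatty acid binding protein, stood at 11.05 to 11.13 in iPS-MG and 11.03 to 11.16 in nMG, against 9.05, 9.06 and 9.29 in aMG, 8.76 to 9.09 in BMM, 9.08 to 9.15 in PM and 7.52 to 7.75 in DC. The 3 macrophage types lay close together below the pair, with DC lowest, and a second Fabp3 probeset gave a gap of 2.09 beside the 1.95 of the first. C2, the protease precursor that completes the classical C3 convertase of complement, had 9.98 to 10.05 in iPS-MG and 9.98 to 10.14 in nMG against 7.98 to 8.26 in aMG, 7.24 to 7.40 in BMM, 7.32 to 7.47 in PM and 7.01 to 7.08 in DC. Its pooled difference was 2.57 ± 0.04 (5.92-fold, limma with Benjamini-Hochberg adjusted p = 7.74e-21).

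Of the channel and transporter genes listed, Mcoln3 and Slc24a5 were set apart higher. Mcoln3, which encodes the endolysosomal cation channel TRPML3, was 10.99, 10.72 and 10.85 in iPS-MG and 10.76, 10.94 and 10.74 in nMG. Its nearest other type was DC at 8.87 to 8.92, followed by BMM at 7.94 to 8.03, aMG at 7.57 to 7.84 and PM at 7.09 to 7.30. Mcoln3 was the only called member of 34 measured lysosome, cathepsin and proton pump genes, a list with 0 lower calls and a median difference of 0.18. Slc24a5, a potassium-dependent sodium-calcium exchanger known from pigment granules, was 10.66 to 10.82 in iPS-MG and 10.76 to 10.77 in nMG. BMM came nearest with 8.83 to 8.98, and aMG reached 7.47 to 7.97, PM 6.77 to 6.96 and DC 6.50 to 6.74. The pooled difference of Slc24a5 was 3.23 ± 0.06 (9.38-fold, limma with Benjamini-Hochberg adjusted p = 2.71e-20).

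Adamts1, a secreted metalloprotease that cuts proteoglycans, had the highest pooled difference of the 25, 3.36 ± 0.04 (10.3-fold, limma with Benjamini-Hochberg adjusted p = 2e-22). Its levels were 11.93 to 11.98 in iPS-MG and 11.99 to 12.06 in nMG, 10.42 to 10.68 in aMG, 8.56 to 8.62 in BMM, 7.73 to 7.79 in PM and 7.46 to 7.71 in DC. The order ran from the neonatal pair through aMG to the types from outside the brain, and the aMG arrays, high in fibroblast markers, set the gap at 1.38. Cnrip1, which encodes a protein that binds the cannabinoid receptor, followed the same order. It had 11.98 to 12.07 in iPS-MG, 11.93 to 12.05 in nMG, 10.31 to 10.75 in aMG, 9.89 to 10.07 in BMM, 8.83 to 8.86 in PM and 6.79 to 6.93 in DC. Its pooled difference was 2.93 ± 0.05, or 7.62-fold.

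Genes known from neurons, glia or epithelia were also among the 25. Sncaip, which encodes the alpha-synuclein partner synphilin-1, was 9.74 to 9.83 in iPS-MG and 9.70 to 9.84 in nMG against 8.03 to 8.40 in aMG and 6.56 to 8.07 in the other 3 types. Elavl4, an RNA-binding protein of neurons, was 7.92 to 8.16 and 7.62 to 8.12 against 6.02 to 6.60 in all 12 other arrays. Ttr, the carrier of thyroid hormone made by the choroid plexus and liver, was 9.65 to 9.83 and 9.65 to 9.72 against 8.08 to 8.46 in aMG and 6.84 to 7.36 in the rest. In all 3 genes the lowest array of the pair lay above the highest of the others.

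Gfap, the intermediate filament of astrocytes, was 8.85 to 9.24 in iPS-MG and 8.86 to 9.13 in nMG, 7.83 to 8.02 in aMG, and 7.29 to 7.81 in BMM, PM and DC (pooled difference 1.40 ± 0.06, limma with Benjamini-Hochberg adjusted p = 1.03e-14). It was the only called gene of 13 astrocyte markers, whose mean level was 8.10 to 8.20 in the arrays of the pair, 8.37 to 8.42 in aMG and 7.55 to 8.07 in BMM, PM and DC. Aqp4, the astrocyte water channel, had a pooled difference of 0.85 and was called higher in 4 of the 8 contrasts. Gja1, the astrocyte gap junction gene, was called higher in 2 contrasts and lower in 2, with 8.05 to 8.28 in the pair and 10.78 to 11.11 in aMG. Of 13 neuron markers 0 were called higher and 1 lower, beside 2.01% and 2.09% of all genes.

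The remaining higher genes had gaps of 1.00 to 1.52. Yipf7 (gap 1.52), a Golgi protein, B3galnt1 (1.43), a glycosyltransferase of globoside synthesis, and Tmem120a (1.38), a membrane protein, lay above BMM or aMG as the nearest type. Liph (1.33) encodes a lipase that makes lysophosphatidic acid, Lrrc39 (1.25) a protein of the muscle sarcomere, and Ptchd1 (1.24), on the X chromosome, a patched-related membrane protein. Nanos1 (1.23) and Igf2bp3 (1.07) encode RNA-binding proteins known from germ cells and fetal tissue, Cdk15 (1.20) a kinase, and Gprc5b (1.15) an orphan receptor. Slc13a3 (1.19) carries dicarboxylates and Slc39a8 (1.16) zinc and manganese, and Tmem144 (1.07) is a membrane protein. Igf2bp3 was nearest in DC at 9.48 to 9.67, against 10.58 to 10.76 in iPS-MG and 10.68 to 10.85 in nMG, and lowest in PM at 6.83 to 7.26.

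The stem cell arrays, which took no part in the rule, showed where else these genes were high. Of the 25 higher genes, 22 lay at least 1 below both neonatal-type means in iPSC and 21 in NSC (neural stem cells). Fabp3 was the exception in iPSC, where it reached 12.82 ± 0.04 (SD, n = 3), above the pair, while Liph (7.80) and Igf2bp3 (11.50) lay within 1 of it. In NSC Sncaip stood at 10.42 and Elavl4 at 8.36, both near or above the pair, and Gprc5b and Igf2bp3 lay within 1. Gfap in NSC was 7.45 ± 0.09, as low as in BMM.

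**Figure D2:**
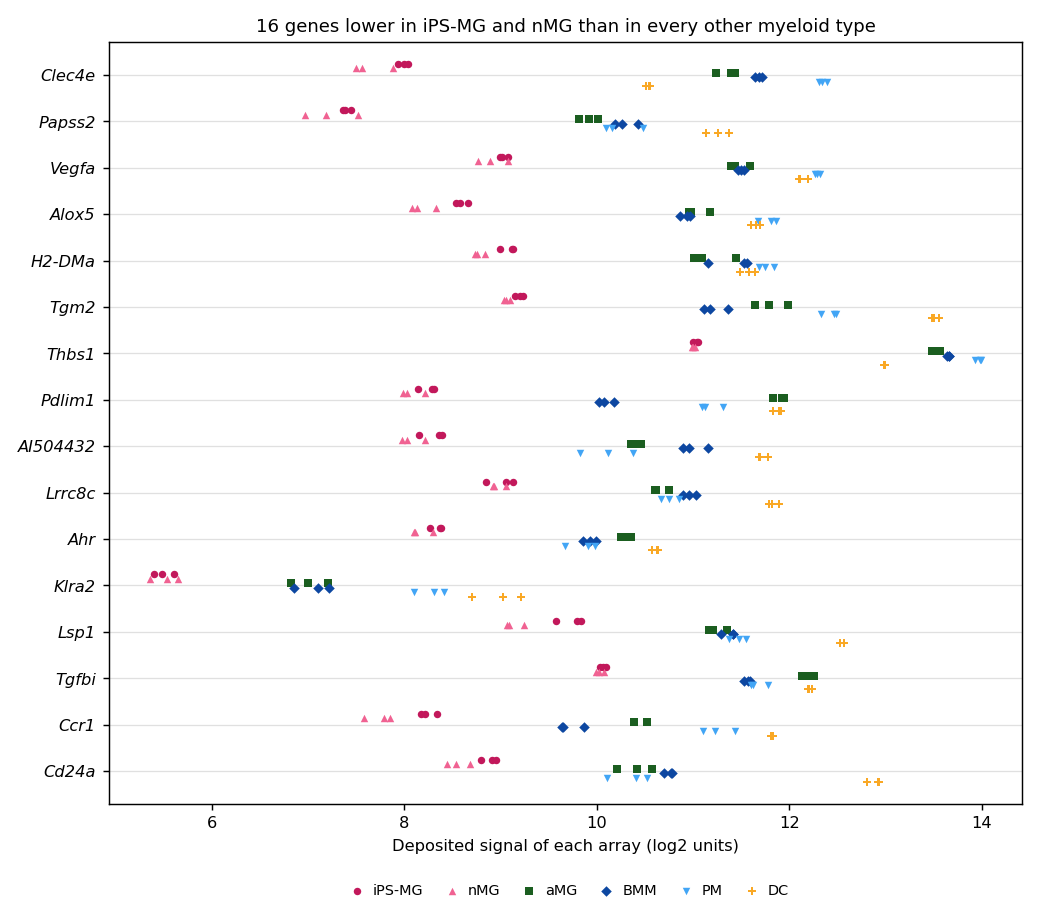
Deposited log2 signal (x axis) of each of the 18 arrays for the 16 genes with the largest gap among the 44 set apart lower; each point is 1 array and symbols give the cell type. The iPS-MG and nMG points lie to the left of all others in every row, from Clec4e with a gap of 2.55 to Cd24a with 1.46.

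The lower genes held receptors of innate immunity, class II presentation, eicosanoid synthesis and matrix proteins. Clec4e, which encodes Mincle, a lectin receptor for mycobacterial glycolipid, had the widest gap. Its signal was 7.94 to 8.03 in iPS-MG and 7.49, 7.88 and 7.56 in nMG, against 11.23, 11.43 and 11.39 in aMG, 11.65 to 11.72 in BMM, 12.30 to 12.39 in PM and 10.51 to 10.56 in DC. DC came nearest, and the gap of 2.55 ± 0.08 was 5.84-fold (limma with Benjamini-Hochberg adjusted p = 8.75e-17).

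Genes of metabolism and secreted mediators followed. Papss2, which makes the sulfate donor PAPS, was 7.36 to 7.44 in iPS-MG and 6.97 to 7.52 in nMG against 9.81 to 10.01 in aMG, 10.19 to 10.42 in BMM, 10.09 to 10.48 in PM and 11.13 to 11.37 in DC. Vegfa, the growth factor of blood vessels, was 8.99 to 9.07 and 8.77 to 9.08 against 11.40 to 11.60 in aMG, 11.47 to 11.53 in BMM, 12.27 to 12.31 in PM and 12.10 to 12.19 in DC. Alox5, the 5-lipoxygenase that starts leukotriene synthesis, was 8.53 to 8.66 in iPS-MG and 8.08 to 8.32 in nMG against 10.86 to 11.17 in aMG and BMM and 11.60 to 11.86 in PM and DC. The 12 other arrays lay over 2 above the pair in each of these 3 genes, with gaps of 2.52, 2.45 and 2.33.

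Matrix and cytoskeletal genes were also low. Tgm2, the tissue transglutaminase that crosslinks proteins, was 9.14 to 9.23 in iPS-MG and 9.04 to 9.09 in nMG, with BMM nearest at 11.11 to 11.36 and DC farthest at 13.48 to 13.55. Thbs1, which encodes the matrix glycoprotein thrombospondin 1, was tightly grouped at 10.99 to 11.05 in the pair, 12.98 to 12.99 in DC and 13.48 to 13.99 in the 3 macrophage types. Tgfbi, a matrix protein induced by TGF-beta, was 9.99 to 10.09 in the pair and 11.53 to 12.26 in the others. Each of the 3 kept aMG, BMM, PM and DC apart from the pair with no overlap of arrays. Pdlim1, a PDZ and LIM domain protein of the actin cytoskeleton, was 7.98 to 8.31 in the pair against 10.02 to 10.18 in BMM and 11.09 to 11.95 in the rest, and a second probeset gave a gap of 2.00 beside its 1.84.

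Receptors, channels and regulators completed the 16 largest gaps. Ccr1, a receptor for inflammatory chemokines, was 8.17 to 8.34 in iPS-MG and 7.58 to 7.85 in nMG, 9.64 to 9.87 in BMM, 10.38 to 10.52 in aMG, 11.10 to 11.44 in PM and 11.81 to 11.83 in DC. Ahr, the aryl hydrocarbon receptor, was 8.10 to 8.38 in the pair and 9.67 to 10.63 in the others. The gaps of Ccr1 and Ahr were 1.48 and 1.52. Lrrc8c (gap 1.64) encodes a subunit of the volume-regulated anion channel, Klra2 (1.5) a Ly49 receptor, Lsp1 (1.5) an actin-binding protein of leukocytes and Cd24a (1.46) a glycosylated surface protein. AI504432 (1.80) is listed as a long noncoding RNA, the only gene of the 69 that is not protein-coding.

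The other 28 lower genes had gaps of 1.01 to 1.45. Among them were Bst1 (1.44), which encodes the surface enzyme CD157, Clec4n (1.31), the lectin receptor Dectin-2, Cd93 (1.02), a myeloid surface glycoprotein, and Cd80 (1.14), a ligand for T cell costimulation. Transcription factors included Klf9 (1.35), Fosl2 (1.22), Egr2 (1.15) and Stat4 (1.13), the last a mediator of interleukin-12 signals. Enzymes and inhibitors included Serpinb1a (1.33), an inhibitor of neutrophil proteases, the ubiquitin ligase Nedd4 (1.24), Txnip (1.19), which binds thioredoxin, mitochondrial carbonic anhydrase Car5b (1.19), Cyp2j6 (1.18), the receptor kinase Grk5 (1.11), ceruloplasmin (Cp, 1.07) and monoamine oxidase B (Maob, 1.02). Emb (1.45), Dock5 (1.41), S100a11 (1.21), Pdcd4 (1.17), Emilin2 (1.13), Ltbp3 (1.09), Pstpip1 (1.07), Lrrk2 (1.04), Slc7a2 (1.03), Afdn (1.02) and Tifab (1.01) were the others with H2-Ab1. Second probesets bore out S100a11 (gap 1.22) and Cd80 (1.17) but not Emb, Klf9 or Lrrk2. Those of Emb, Klf9 and Lrrk2 differed by -0.24, -0.29 and -1.06 in the pooled contrast, against -2.41, -2.36 and -2.26 in the first. In Emb and Klf9 the second probeset was dim, with highest group means of 7.38 and 7.44, under 8.05, so a difference could be missed. In Lrrk2 the highest group mean was 8.71. With centred arrays 11 of the lower genes were no longer set apart, namely S100a11, Txnip, Car5b, Ltbp3, Pstpip1, Lrrk2, Slc7a2, Afdn, Cd93, Maob and Tifab.

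In the lower genes the nearest type was aMG in 16, BMM in 13, PM in 10 and DC in 5, and the farthest was DC in 21 and PM in 15. The stem cells did not share the low levels throughout: iPSC lay at least 1 above both neonatal-type means in 15 of the 44 genes and at least 1 below both in 9. Thbs1 in iPSC was 13.09 ± 0.01 (SD, n = 3) and Pdlim1 12.49 ± 0.01, both well above the pair. In NSC 10 genes lay above and 14 below by that amount, and Cd24a reached 13.32 ± 0.05.

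Promoter sequences are shown for the gene with the largest gap in each direction and for the next gene in each direction whose promoter held 1 of 4 motifs. They come from RefSeq annotation of GRCm38.p6, run 5′ to 3′ on the strand of the gene, and cover the 250 bases before the annotated start. Pld5 (chr1:176213943-176214192, minus strand) and Clec4e (chr6:123289872-123290121, minus strand) held none of the motifs. Capitals mark the PU.1 motif in Mcoln3 (chr3:146121541-146121790, plus strand) and the interferon response element core in Vegfa (chr17:46032378-46032627, minus strand), both read on the opposite strand.
Pld5 promoter: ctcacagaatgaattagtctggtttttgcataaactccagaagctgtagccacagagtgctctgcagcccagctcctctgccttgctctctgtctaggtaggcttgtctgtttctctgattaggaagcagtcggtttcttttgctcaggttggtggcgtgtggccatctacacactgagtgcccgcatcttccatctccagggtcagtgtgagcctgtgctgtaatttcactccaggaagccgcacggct
Mcoln3 promoter: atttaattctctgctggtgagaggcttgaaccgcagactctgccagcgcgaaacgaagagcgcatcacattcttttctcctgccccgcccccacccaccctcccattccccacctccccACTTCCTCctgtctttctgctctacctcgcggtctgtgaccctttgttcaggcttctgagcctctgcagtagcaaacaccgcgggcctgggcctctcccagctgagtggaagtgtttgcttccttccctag
Clec4e promoter: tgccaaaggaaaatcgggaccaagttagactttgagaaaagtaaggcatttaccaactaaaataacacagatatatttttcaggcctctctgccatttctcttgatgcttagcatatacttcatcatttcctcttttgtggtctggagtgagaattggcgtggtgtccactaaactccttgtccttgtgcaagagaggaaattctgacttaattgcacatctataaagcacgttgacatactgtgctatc
Vegfa promoter: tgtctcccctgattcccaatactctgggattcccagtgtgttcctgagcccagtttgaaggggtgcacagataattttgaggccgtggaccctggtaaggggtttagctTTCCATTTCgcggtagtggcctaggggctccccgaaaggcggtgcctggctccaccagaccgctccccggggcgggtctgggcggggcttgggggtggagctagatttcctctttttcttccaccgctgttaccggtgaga

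Motif shares were counted on both strands of windows from 250 bases before to 50 after the start, which were used for 20 of the 25 higher genes, 30 of the 44 lower ones and 14739 measured genes. The interferon response element core GAAANNGAA was in 3 of 20 higher (15%), 8 of 30 lower (26.7%) and 9.25% of all promoters. The STAT motif TTCNNNGAA was in 1 (5%, in Gfap), 5 (16.7%) and 9.06%, and the PU.1 motif GAGGAAGT in 1 (5%), 1 (3.33%) and 3.31%. TCACGTGA, a motif of TFEB and MITF, was in 1 higher promoter (Igf2bp3), in 0 lower ones and in 1.52% of all. A match is only a run of letters in this window, and no test was made of these shares.

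iPS-MG and nMG were next compared with each other in the genes that set both apart. The contrast of iPS-MG with nMG called 5 of 18820 genes (0.0266%), Ccn3, Timp3, Car6, Arg1 and Fn1, all higher in iPS-MG and none of them set apart. At the adjusted p alone it passed 39 genes (0.207%), again all higher in iPS-MG. In the 25 higher genes the differences ran from -0.19 to 0.18 with iPS-MG above nMG in 15, and 0 passed an adjusted p of 0.05 (limma; 3 had an unadjusted p under it). Pld5 differed by -0.03 ± 0.07 and Fabp3 by 0.01 ± 0.09 (SE).

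In the lower genes iPS-MG lay nearer to the other types. Its mean was above that of nMG in 37 of 44, with a median of 0.13, beside 43.2% of all genes and a median of -0.01 over all genes. Of these, 5 passed an adjusted p of 0.05 (11.4% of the 44, beside 0.207% of all genes; 21 had an unadjusted p under 0.05), and 0 reached 2-fold. Slc7a2, a transporter of cationic amino acids, was 8.77, 8.62 and 8.70 in iPS-MG and 7.66, 7.80 and 8.09 in nMG, with BMM next at 9.69 to 9.77 and DC at 13.48 to 13.52. The iPS-MG arrays lay wholly between nMG and BMM, 0.85 ± 0.08 above nMG (limma with Benjamini-Hochberg adjusted p = 2.74e-06). Lsp1, at 9.58 to 9.84 against 9.07 to 9.24, and Bst1, at 8.85 to 9.09 against 8.35 to 8.48, had the same order, and the remaining 2 were Ccr1 and Alox5. The same fit chose these genes, so their number describes them and is no separate test.

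**Figure D3:**
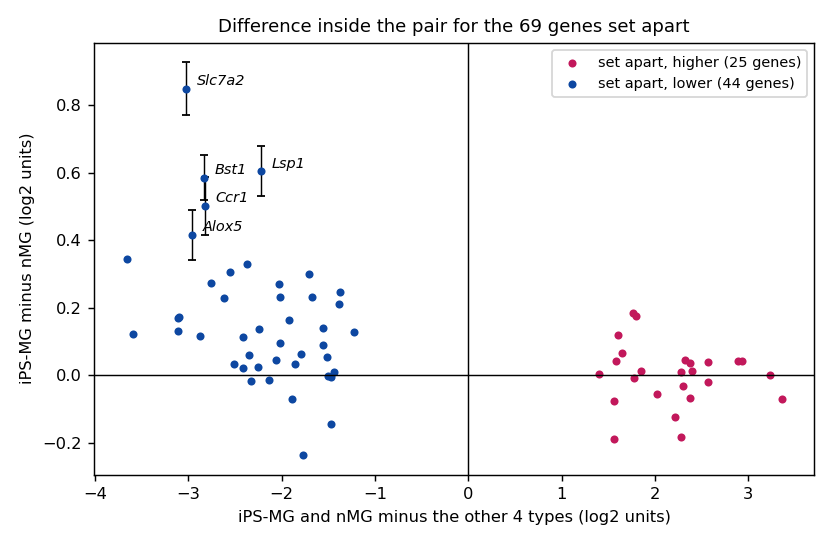
Difference of iPS-MG minus nMG (y axis, log2 units) against the pooled difference of the pair from the other 4 types (x axis, log2 units) for the 69 genes set apart; each point is a gene, and bars give the standard error for the 5 genes with an adjusted p under 0.05. Higher genes scatter about 0 between -0.19 and 0.18, while 37 of the 44 lower genes lie above 0.

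Gene lists showed how the pooled contrast spread over pathways. In these lists "called" refers to that contrast, and the number of the 8 single contrasts called says whether every other type took part. Of 794 genes on 43 lists, 189 were called and 20 of those were set apart. Over all 18820 genes 2.01% were called higher and 2.09% lower, and each list count is to be read beside these shares. A single call in a list is not read as a result about that list. A fit with cell type as a random block called 158 genes higher and 163 lower. Its counts stand beside those of each list below that had a call. It used 1 correlation within cell type, 0.826, for all genes. Its p-values still count 18 arrays and can be too small for a comparison of 2 cell types with 4. All 69 set-apart genes were called there too, which is nearly certain for genes chosen by large differences in the same arrays.

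Class II presentation was the list with the lowest median. Of 13 measured members 8 were lower (61.5%) and 0 higher, with a median of -1.52 beside -0.05 over all genes. H2-DMa, a subunit of the chaperone that loads peptide, was 8.99 to 9.13 in iPS-MG and 8.73 to 8.84 in nMG, against 11.01 to 11.44 in aMG, 11.15 to 11.56 in BMM, 11.68 to 11.84 in PM and 11.48 to 11.64 in DC. It was set apart from every type by 2.10. H2-Ab1, the beta chain of the class II molecule I-A, was 7.40 to 7.68 in the pair, 8.65 to 9.21 in aMG and 11.39 to 12.18 in BMM, PM and DC, which put aMG much nearer to the pair than the rest. Cd80 was 9.42 to 9.72 in the pair and 10.77 to 11.64 in all the others.

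The other class II members called lower were not all called against aMG. H2-Aa, the alpha chain of I-A, had the largest pooled difference, -4.34 ± 0.06, with 6.03 to 6.41 in the pair and 11.21 to 12.67 in BMM, PM and DC. The aMG arrays had 6.20 to 6.34, inside the range of the pair. H2-Eb1 likewise was 8.47 to 8.78 in the pair, 8.54 to 8.66 in aMG and 10.32 to 12.05 in the rest, and Cd74, the invariant chain, was 8.29 to 8.73, 8.97 to 9.31 and 11.42 to 12.79. The Cd74 arrays of aMG lay above those of the pair by less than the 2-fold minimum. H2-Aa, H2-Eb1 and Cd74 were called in 6 of the 8 contrasts, and 7 of the 8 lower members were called with the random block.

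**Figure D4:**
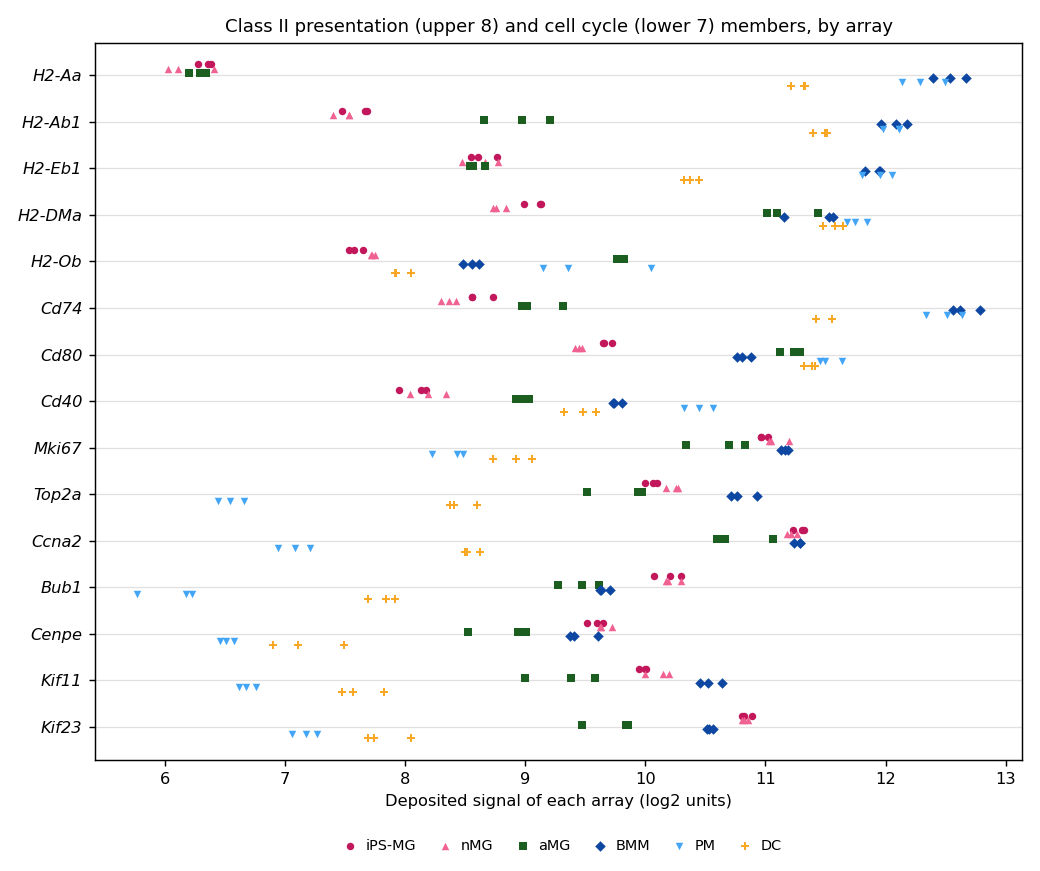
Deposited log2 signal (x axis) of each of the 18 arrays for the 8 class II presentation genes called lower and 7 of the 14 cell cycle genes called higher, chosen after their values were seen; each point is 1 array and symbols give the cell type. No array of another type overlaps the pair in H2-DMa, H2-Ab1 and Cd80, the aMG arrays lie within the range of the pair in H2-Aa and H2-Eb1, and PM and DC lie farthest below the pair in the cell cycle genes.

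Cell cycle genes were higher in the pooled contrast but set nothing apart. Of 28 members 14 were higher (50%) and 1 lower, beside 2.01% and 2.09% over all genes, with a median of 1.02. The motor protein gene Kif23 had a difference of 2.02 ± 0.06, with 10.80 to 10.89 in the pair, 10.51 to 10.56 in BMM, 9.47 to 9.86 in aMG, 7.69 to 8.05 in DC and 7.05 to 7.27 in PM. BMM were near the pair and PM and DC far below, an order that Bub1 (difference 1.96), a checkpoint kinase, cyclin A2 (Ccna2, 1.83) and the centromere motor Cenpe (1.63) shared. Mki67, the proliferation marker, was 10.96 to 11.20 in the pair and 11.13 to 11.19 in BMM. Cyclin D2 (Ccnd2) went the other way with -1.55. With cell type as a random block 0 members were called.

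Sterol synthesis and lipid handling genes were higher in 10 of 33 (30.3%) and lower in 0, with a median of 0.84, and the random block called 6. Besides Fabp3, Fasn, the fatty acid synthase, was 11.23 to 11.39 in the pair, 10.35 to 10.64 in aMG, 9.85 to 10.19 in BMM and PM and 9.33 to 9.37 in DC (pooled difference 1.36 ± 0.04). The aMG arrays lay within 2-fold below the pair, so that 6 of the 8 contrasts were called. Idi1, an enzyme of isoprenoid synthesis, averaged 11.46 and 11.56 in iPS-MG and nMG, and 11.43 in PM, against 10.45 in aMG, 10.11 in BMM and 8.65 in DC. Fabp4, the adipocyte fatty acid binding protein, was 11.87 to 12.04 in the pair and 12.07 to 12.29 in PM, so that every PM array lay above it, with 9.20 to 9.61 in aMG and a mean of 9.11 in DC.

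Microglia-enriched genes were higher in 8 of 27 (29.6%) and lower in 0, and 0 were set apart. Gpr34, a receptor for lysophosphatidylserine, averaged 10.10 and 10.20 in the pair and 10.04 in aMG, against 7.35 in BMM, 6.94 in PM and 5.87 in DC. Fcrls (12.93, 12.85 and 13.49) and P2ry12 (10.24, 10.23 and 10.56), an ADP receptor, likewise were at or above the level of the pair in aMG. Sall1, a transcription factor of microglia, was 9.76 to 9.89 in the pair, 9.08 to 9.29 in aMG and 7.68 to 8.73 elsewhere, called in 6 contrasts. Tmem119, another microglial gene, was 8.37 to 8.59 in the pair, 9.87 to 10.27 in aMG, 8.33 to 8.51 in PM, 8.19 to 8.29 in DC and 7.87 to 8.02 in BMM, so the pair overlapped PM. The mean of the list was 11.48 in aMG, 11.03 in iPS-MG, 10.98 to 11.02 in the nMG arrays, and 9.48 to 10.32 in the other types. With the random block 2 members were called.

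Interferon response genes were higher in 10 of 36 (27.8%) and lower in 0, beside 2.01% and 2.09% over all genes. Their median was 0.55, and BMM stood highest in the leading genes. Ifit3, an antiviral protein, was 11.91 to 12.32 in the pair, 12.70 to 12.79 in BMM, 10.58 to 10.81 in aMG, 8.08 to 8.79 in PM and 6.81 to 6.95 in DC. Ifit2 (pooled difference 2.06) and Rtp4 (1.76) also had every BMM array above the pair, Ifit1 (2.01) had BMM arrays that overlapped it, and the 3 genes were called against aMG, PM and DC but not BMM. Irf7 and Oas2, also higher in the pooled contrast, were called lower than BMM. With the random block 0 members were called.

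Growth factor and STAT5 response genes were lower in 7 of 25 (28.0%) and higher in 1. Socs2, a feedback inhibitor of cytokine receptors, averaged 8.32 in iPS-MG and 7.71 in nMG, 12.77 in DC, 10.53 in aMG, 8.71 in BMM and 8.35 in PM. Irf4, a transcription factor of dendritic cells, was 12.42 in DC against 6.80 to 8.77 in the other 5 types, and Cish, a STAT5 target, 11.50 against 7.32 to 8.19. Without DC the pooled differences of Irf4 and Cish were -0.41 and -0.64, below the 2-fold minimum, and 0 members were called with the random block.

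Lists of matrix, TGF-beta, immediate early and hypoxia genes leaned to the lower side. Proteases, inhibitors and matrix genes were lower in 9 of 25 (36.0%) and higher in 4, with Tgm2, Thbs1 and Adamts1 set apart and 2 lower and 3 higher with the random block. Higher members were Cmbl (2.48), which was near the pair in BMM, Mamdc2 (2.02) and Lox (1.89), which aMG held above the pair. TGF-beta and BMP genes were lower in 6 of 27 (22.2%) and higher in 0, with Tgfbi and the latent TGF-beta binding protein Ltbp3 set apart. Immediate early genes, induced within minutes of a stimulus such as cell isolation, numbered 5 lower calls among 20, led by Egr2 (-2.24), Btg2 (-1.61) and Nr4a2 (-1.51). Of 23 glycolysis and hypoxia genes 4 were lower (17.4%), Vegfa, Egln3 (-2.26), a prolyl hydroxylase, Slc2a1 (-1.03) and Slc16a3 (-1.01), the last 2 under 2-fold with centred arrays. In each of these 3 lists (TGF-beta, immediate early, glycolysis and hypoxia) 4 genes were called lower with the random block.

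**Figure D5:**
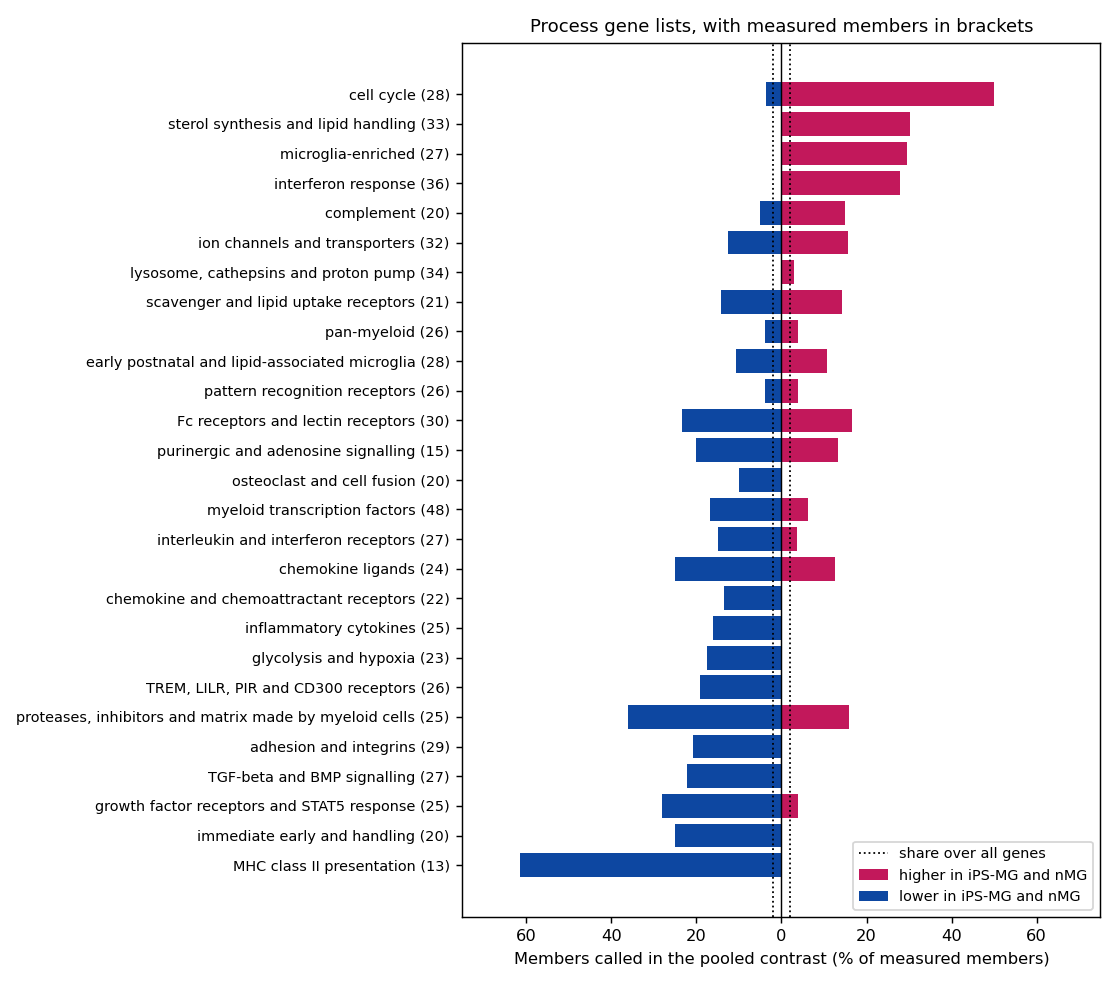
Share of measured members called higher (right) and lower (left) in the pooled contrast for the 27 process lists, in percent of the members given in brackets; dotted lines mark the shares over all genes, 2.01% and 2.09%. Cell cycle has the largest higher share at 50% and class II presentation the largest lower share at 61.5%.

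Receptors were split by family, and their counts stand beside 2.01% higher and 2.09% lower over all genes. Fc and lectin receptors were higher in 5 of 30 and lower in 7, with Clec4e and Clec4n set apart, while Fcgr4 (1.73) and Fcgr1 (1.21), activating receptors for IgG, were higher. Mgl2 (-2.27), Clec9a (-2.26) and Cd209a (-2.14) were lower, genes best known from dendritic cells. The random block called 2 of these receptors higher and 3 lower. TREM and CD300 receptors were lower in 5 of 26 and higher in 0, led by Pilra (-2.06) and Cd300lf (-1.75). Chemoattractant receptors were lower in 3 of 22, Ccr1, Ccr2 (-1.77) and Cxcr2 (-1.25), of which Ccr2 and Cxcr2 were at -0.71 and -0.47 when BMM was left out. Under the random block 2 TREM and CD300 receptors and 1 chemoattractant receptor were called lower.

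Interleukin receptors were higher in 1 of 27 (3.7%) and lower in 4 (14.8%), beside 2.01% and 2.09% over all genes. Il12rb2, a chain of the interleukin-12 receptor, was 10.14 to 10.34 in the pair, 10.03 to 10.15 in DC, 7.86 to 8.02 in BMM, 7.26 to 7.57 in PM and 6.79 to 7.13 in aMG. The pair therefore shared its high level with DC alone, while Stat4, a transducer of the same receptor, was 6.32 and 6.05 in the pair and 7.45 to 10.19 in the others. Il7r was lower by 2.02, with 9.22 in aMG beside 9.57 and 9.42. Chemokine ligands were higher in 3 of 24 (Ccl8, Ccl12, Ccl4) and lower in 6, and inflammatory cytokines were lower in 4 of 25. With the random block 1 ligand was called higher and 0 lower, 2 cytokines lower, and 1 interleukin receptor higher and 3 lower. Il6 averaged 4.68 and 4.55 in the pair, 5.15 in PM, 5.95 in BMM, 8.03 in aMG and 9.43 in DC, and Il1b was lower by 1.91 ± 0.17.

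Transcription factors of myeloid cells were higher in 3 of 48 (6.25%) and lower in 8 (16.7%), beside 2.01% and 2.09% over all genes. Egr2 alone was set apart. Bhlhe40 was lower by 2.27, Rara, the retinoic acid receptor, by 1.73 and Gata6, the factor of peritoneal macrophages, by 1.87 with 11.55 in PM. Spi1, which encodes PU.1, differed by 0.12 ± 0.04 and Csf1r, the M-CSF receptor, by 0.01 ± 0.04. Csf1r was called higher than DC. Trem2, a lipid receptor, differed by 0.18 ± 0.04 and was called in 0 of the 8 contrasts. Cx3cr1 differed by -0.08 ± 0.04, an average of opposite differences, since the pair was called lower than aMG and higher than DC. The pair and aMG carried gfp in 1 copy of this gene, and BMM, PM and DC did not. Against BMM, PM and DC, allele and cell type cannot be told apart in its level. The random block called 1 transcription factor higher and 4 lower. Of 32 ion channel and transporter genes 5 were higher and 4 lower, or 5 and 3 with the random block. Besides Mcoln3, Slc24a5 and Slc7a2, the iron exporter Slc40a1 was higher by 2.84 ± 0.06, with 12.60 to 12.70 in the pair, 12.67 to 12.73 in BMM, 10.19 to 10.65 in aMG and 7.77 to 8.23 in PM and DC.

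The remaining process lists are read beside the 2.01% higher and 2.09% lower over all genes. Complement was higher in 3 of 20 and lower in 1, with C2 the member set apart, and C1qa and C1qc were at 0.38 and 0.10 without DC. Adhesion genes were lower in 6 of 29, purinergic genes higher in 2 and lower in 3 of 15, and scavenger receptors higher in 3 and lower in 3 of 21. With the random block 1 complement gene (higher), 1 adhesion gene (lower), 1 purinergic gene (lower) and 0 scavenger receptors were called. Early postnatal and lipid-associated microglial genes were higher in 3 (Ccl4, Ms4a7, Apoe) and lower in 3 (Itgax, Csf1, F13a1) of 28, osteoclast genes lower in 2 of 20, and pattern recognition receptors higher in 1 (Tlr1) and lower in 1 (Nlrp3) of 26. Pan-myeloid genes were higher in 1 (Aif1) and lower in 1 (Fgr) of 26. The random block called 1 early postnatal gene higher, 0 osteoclast genes, and 1 lower gene each among the pattern recognition receptors and the pan-myeloid genes.

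Marker lists of the comparison types held more lower than higher calls, beside 2.09% lower and 2.01% higher over all genes. Granulocyte markers were lower in 9 of 14 (64.3%), monocyte and bone marrow markers in 10 of 15 (66.7%), peritoneal macrophage markers in 10 of 19 (52.6%), dendritic cell markers in 6 of 20 (30.0%) and mast cell markers in 4 of 13 (30.8%). Cd93 was the only one of these markers set apart. With the random block 0, 2, 2, 1 and 0 of them were called lower. Ngp, a neutrophil granule gene, averaged 6.06 and 5.85 in the pair and 12.53 in BMM, and its difference of -2.02 was -0.49 without BMM. Fibroblast markers were higher in 1 of 18 (Postn, 1.05, with 12.02 in aMG above 9.30 and 9.41 in the pair), endothelial ones lower in 1 of 16, and 0 B cell, T and NK cell or oligodendrocyte markers were called. Eif2s3y (3.58), Uty (3.42) and Kdm5d (1.57) made 3 of 4 sex-linked genes higher, each called in 6 contrasts and higher still in DC. The last 3 lists had 1 higher and 2 lower of 7 erythroid and platelet genes, and 1 lower each of 14 pluripotency and 13 neural progenitor genes. The random block called 2 sex-linked genes and 1 erythroid gene higher, 1 neural progenitor gene lower, and 0 fibroblast, endothelial, neuron or pluripotency genes.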

How the data were processed

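RNA of each sample was measured on Affymetrix Mouse Gene 1.0 ST arrays. The deposited table holds log2 values of 35556 probesets, and the submitters' processing notes name RMA and Partek; the log2 scale was taken from RMA's usual output, and the values ran from 3.14 to 14.43. The sources used here name no chip definition, filter or genome build, and no detection calls were used, so that no level can be called absent and the number of arrays limits the precision.

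Probesets naming 1 gene (21218, against 1881 with several symbols and 12457 with none) were kept, and for 1386 genes with more probesets the one with the highest mean over all arrays, which left 18820 genes. By Entrez ID, RefSeq held 21185 of these probesets, and 0 symbols changed. Names come from the platform annotation and can be old. With R 4.3.3, limma 3.58.1 (moderated statistics from eBayes) fitted 6 group means to 18 arrays, with Benjamini-Hochberg adjustment over all genes, and the script was tested on simulated data. The standard error follows ± beside a difference, and the SD over 3 arrays beside a level.

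The genes named were the 16 largest gaps each way, up to 4 called members of each list with the largest differences, fixed identity genes, and set-apart genes that differed between iPS-MG and nMG; the remaining set-apart genes, Gja1, Aqp4, Mki67, the genes near the limits, the 5 genes called between iPS-MG and nMG and further list members were named after their values were seen. Members, lists and rules were chosen with earlier results of these data known. Alternatives covered scaling, filters, fold minimum, the probeset, the test, the replicate number, cell type as a random block, and leaving out arrays or types.

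Replicate numbers are shared between groups. Over 45 same-number pairs of arrays the deviations from the group means correlated between -0.261 and 0.251 (median 0.002), so the numbers were not taken to pair samples.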

Additional observations from a re-analysis of the deposited data

Results flagged for a closer look

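Among the 44 genes set apart lower, 5 differed between iPS-MG and nMG in the test of that difference itself (limma with Benjamini-Hochberg adjustment, adjusted p under 0.05), and iPS-MG was the higher group in each. The log2 difference of iPS-MG minus nMG was 0.849 in Slc7a2, 0.605 in Lsp1, 0.585 in Bst1, 0.503 in Ccr1 and 0.416 in Alox5. In all 5 genes the 3 iPS-MG arrays lay above the 3 nMG arrays and below every array of the other 4 types. Over all 18820 genes the same contrast passed 39 (0.207%), and iPS-MG was higher in all 39. Lying below the other types is part of the rule that chose these genes, from the same fit. Their number is therefore no separate test.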

How the results depend on the processing

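All 69 genes set apart kept a pooled call with cell type as a random block, which is nearly certain for genes chosen by large differences in the same arrays. That fit called 158 genes higher and 163 lower and could not be made for the 8 single contrasts. Of 183 named results 71 lost their call there. With no fold minimum the pooled contrast called 4684 genes higher and 6605 lower, and 784 and 584 were set apart. Of the 69 genes set apart at the 2-fold minimum, 5 then differed between iPS-MG and nMG. With a 4-fold minimum 48 and 79 genes were called, and 1 and 6 were set apart. Leaving out aMG gave 117 higher and 124 lower genes set apart, BMM 72 and 68, PM 33 and 61, and DC 31 and 61. Fewer types must differ in each of these settings, and why the counts rose by unlike amounts was not tested. Without DC the pooled difference of Xist turned to -1.01. DC was the comparison type with low Xist, so the mean of the other types rose when it was left out. Why the Xist levels differ was not tested. Leaving out 1 array at a time gave 23 to 27 higher and 42 to 46 lower genes set apart. The replicate block gave 378 and 393 pooled calls and 25 and 44 genes set apart, as without it, and changed no call; 6 of 18 arrays correlated best with an array of their own number. Second quantile normalization gave 384 and 358 pooled calls, with 28 and 40 genes set apart. Leaving out dim genes, whose group means all lay under 8.05, left 24 higher and 43 lower genes set apart, without Elavl4 and Maob.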
